A study of Mus musculus with 2 samples.

Results

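The 50 ATP-binding cassette (ABC) genes described here are those whose probes carry a gene name made of Abc, a subfamily letter from a to g and a number. They were found by that name pattern alone, on the wild-type array, and read at the same spots of the ob/ob array. They make up 50 of the 31881 genes and unnamed transcripts on the array and are covered by 68 probes on 77 spots. Of these genes 34 have 1 probe and 16 have several. No measured value entered the name pattern, but the family was chosen with earlier results of these data known.

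The study compared liver sinusoidal endothelial cells (LSEC), the fenestrated lining cells of the liver's capillaries, from a wild-type mouse and an ob/ob mouse. The ob/ob mouse lacks functional leptin and becomes obese. Both mice were male and 8 weeks old, their livers were digested with collagenase, and the cells spent a night in culture with serum before RNA was taken. Each genotype is represented by 1 mouse and 1 one-colour Agilent array, and the labels give no strain for the wild-type mouse and no purification step after digestion. The comparison therefore has no replicate check, no test was run, and the spreads given are technical only. In RNA from a mixed preparation, fewer cells of a type and less RNA per cell cannot be told apart.

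ABC proteins use ATP to move substrates across membranes. Abca1 and Abcg1 hand cholesterol to lipoproteins and are classic targets of the liver X receptors (LXR), the Abcc proteins export drugs, glutathione conjugates and signalling molecules, and Abcb11 and Abcb4 secrete bile acids and phosphatidylcholine from hepatocytes into bile. The E and F subfamilies carry ATP-binding cassettes but no membrane domains and act on ribosomes.

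Values are processed signals, which the scanner software had corrected for background but not scaled between arrays. Differences are log2 values, ob/ob minus wild-type, after each signal was divided by the 75th percentile of its own array, 989 for wild-type and 1430 for ob/ob. A signal that is equal on both arrays is therefore a negative difference. A gene counted as measured on an array where over 50% of the kept spots of its probe were well above background, and as different where the scaled signals were 2-fold or more apart. The scanner's error model gives each difference an SD, and its median over all genes measured on both arrays was 0.20. Where a gene had several measured probes (3693 genes), their differences spread with an SD of 0.33. Neither contains the spread between mice. In wild-type LSEC 58.6% of spots were well above background and in ob/ob LSEC 64.8%, and the median difference of all 18139 genes measured on both arrays was -0.12. Scaling by the array median in place of the 75th percentile moves that median to -0.40, and every member by the same step.

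The labelled cell type was checked on lists of marker genes. All 10 sinusoidal endothelial markers, among them Stab2, Lyve1 and Clec4g, were measured on both arrays, with a median difference of -0.24 and none 2-fold apart. All 10 pan-endothelial markers were likewise measured on both, with a median of 0.01 and none 2-fold apart. Markers of other liver cells were also present, and higher on the ob/ob array. Of 11 hepatocyte markers on the array 10 were measured on both and 9 were at least 2-fold higher. Their summed signal, each divided by the array's 75th percentile, was 2.63 for wild-type and 21.0 for ob/ob, and Cps1 was near background on both. Of 12 macrophage markers 10 were at least 2-fold higher, with sums of 56.8 and 150. Of 12 stellate cell markers 8 were at least 2-fold higher, with sums of 9.08 and 36.3, and Reln and Col1a1 were well above background on the ob/ob array only. Of 8 cholangiocyte markers 3 were measured on both arrays, Krt8, Krt18 and Spp1, and all 3 were at least 2-fold higher. The sums over all 8, Cldn4 among them, were 0.62 and 5.52. Spp1, at 291 and 5580, was the brightest of the 8. Another 4 were seen in ob/ob cells alone. Of these Krt19 was at least 1.87-fold higher and Sox9 at least 1.55-fold, but Krt7 and Epcam only at least 1.01-fold and 1.05-fold. Cldn4 ran the other way, with 77.5 in wild-type cells and 4.58, not well above background, in ob/ob cells, at least 9.58-fold lower. Of 8 lymphocyte markers 2 were measured on both and neither was 2-fold apart, while 3 others, Cd3d, Cd2 and Gzmb, were seen in ob/ob cells alone. With normexp background correction and 75th percentile scaling the counts of higher markers were 6 for hepatocytes, 10 for macrophages and 2 for stellate cells. Each sum covers the markers of its list that were well above background on at least 1 array. Bright probes weigh most in a sum, so it is no measure of cell number. Dcn, at 7908 and 47500, made up most of the stellate sums, and Marco, at 25777 and 90900, was the brightest macrophage marker. These lists are named again beside the members whose differences run the same way, and their part in those differences was not tested.

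The probes and upstream windows that the results turn on are shown first. Both probes of Abcc8 lie on chromosome 7 and overlap by 47 bases, but only 1 of them was well above background on both arrays. The lines give the first 30 bases of probe A_55_P2178207 and the last 30 bases of probe A_55_P1979814, with bases shared by both probes in capitals, so the lower-case ends are what distinguishes them.
Abcc8 A_55_P2178207: agcgtgccgccccGCACCTCACTTGCTTGC
Abcc8 A_55_P1979814: CTGTAAATCACTTGTAAataaagaaattaa

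The 3 members measured on both arrays and at least 2-fold apart were each read by 1 probe, whose first 30 bases follow. On build mm9 these probes of 60 bases lie on the minus strand, Abcc9 at chr6:142536920-142536979, Abcc3 at chr11:94204612-94204671 and Abcc4 at chr14:118882104-118882163. No gene annotation of that build was used, so their place within exons or untranslated regions is not given.
Abcc9: attgcgttgcttgggctacctccgatgaca
Abcc3: aacagagaccctgtactggtgctgtctgag
Abcc4: gccagtaaatgatgtagattcgtcctttat

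Upstream windows came from RefSeq's GRCm38.p6 promoter table, which matched 38 of the 50 genes with 45 windows. The 250 bases before each start site were searched on both strands for motifs spelled after these windows had been read, so a match describes the letters and nothing more. Abca1 is shown for an LXR-type direct repeat, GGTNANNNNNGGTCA, at bases -67 to -53 on the strand opposite to the gene, in capitals. That motif occurs in 0.177% of all 32851 windows and in no other member window. Abcb11 is shown for an inverted repeat of the kind bound by the bile acid receptor, AGGNCANTGACCT, at bases -63 to -51, in capitals, which occurs in 0.0335% of windows and in no other member window. The windows lie on the minus strand, at chr4:53159941-53159970 for the Abca1 stretch and chr2:69342617-69342866 for Abcb11.
Abca1: acagcgttTGACCGGTAGTAACCccggcgc
Abcb11: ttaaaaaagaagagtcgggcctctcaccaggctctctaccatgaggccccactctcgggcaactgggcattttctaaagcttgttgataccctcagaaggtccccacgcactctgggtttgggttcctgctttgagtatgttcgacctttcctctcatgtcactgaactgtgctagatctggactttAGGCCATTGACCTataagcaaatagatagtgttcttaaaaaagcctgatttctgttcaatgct

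Abcg5 and Abcg8 are transcribed away from each other, and their start sites are separated by 109 bases at chr17:84683012-84683120 (GRCm38.p6). The stretch is shown on the plus strand because both genes were well above background on the ob/ob array only. It holds 2 matches to GATAA, in capitals, both on the minus strand. GATAA occurs in 22.6% of all windows and 22.2% of member windows, so its presence sets these windows apart from neither.
Abcg5 and Abcg8: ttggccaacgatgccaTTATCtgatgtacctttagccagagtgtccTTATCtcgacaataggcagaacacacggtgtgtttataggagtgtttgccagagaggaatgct

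Of the 50 ABC genes 32 were measured on both arrays, 6 in ob/ob cells alone, none in wild-type cells alone and 12 in neither. Of all genes 6.85% were seen in ob/ob cells alone, against 12% of the members, and 35.4% on neither array, against 24%. Among the 32 members measured on both, 2 (6.25%) were at least 2-fold higher on the ob/ob array, where 5.82% of all genes were, and 1 (3.12%) was at least 2-fold lower, where 2.29% were. These shares lie near those of all genes and are no result about the family. The median difference was -0.14 (quartiles -0.44 and 0.23) against -0.12 for all genes (quartiles -0.34 and 0.16). Below the all-gene median lay 17 members and above it 15, and 22 of the 32 differed by less than 0.5. With the main scaling the 3 of these 32 beyond 2-fold, Abcc9, Abcc3 and Abcc4, were all Abcc genes. The other 25 members measured on both arrays ranged from -0.89 to 0.83. Just inside 2-fold lay Abcb9 at -0.89, Abcg1 at 0.83 and Abca7 at -0.81, and just outside it Abcc3 at 1.13. On the lower side the first gene past 2-fold was Abcc4, at -1.69.

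**Figure D1:**
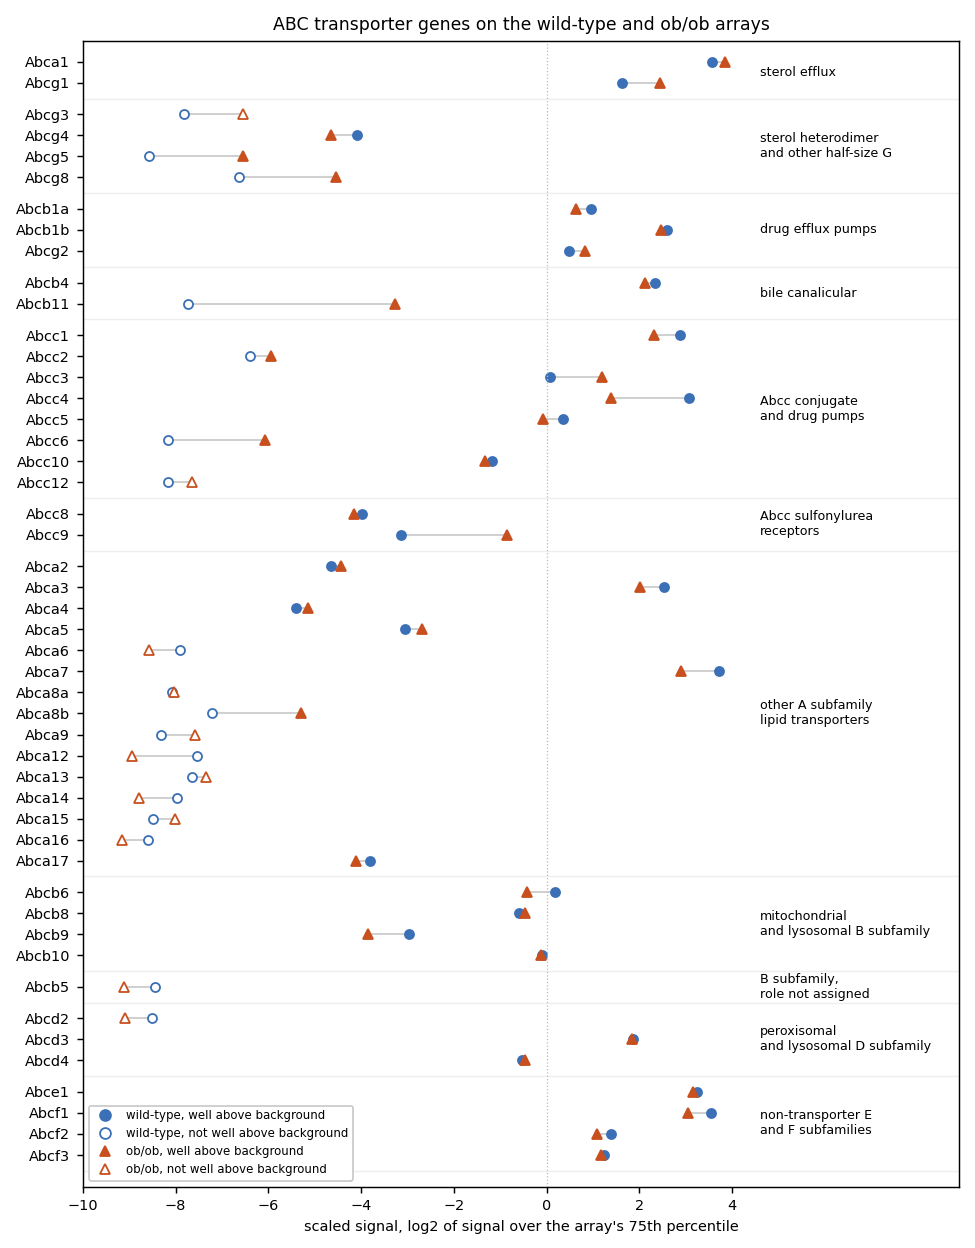
Scaled signal (log2 of signal over the array's 75th percentile, horizontal axis) of 48 ABC genes, grouped by role, with circles for the wild-type and triangles for the ob/ob array, open where not well above background. Levels are to be compared within a gene and not between genes, since each is read by another probe, and the widest gap among genes with both symbols filled is that of Abcc9.

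Among the sterol transporters, neither reached 2-fold with the main scaling, and Abcg1 differed more than Abca1. Abca1, which lipidates apolipoprotein A-I, read 11772 for the wild-type mouse and 20600 for the ob/ob mouse. Its difference was 0.27 (scanner error SD 0.20), positive under 11 of 12 alternatives, up to 0.55, and -0.005 under array-median scaling. The filters and the probe averaging among these alternatives cannot move a bright gene read by 1 probe. Abcg1, which passes cholesterol on to high-density lipoprotein, gave 3027 and 7760. Its difference of 0.83 (scanner error SD 0.20), or 1.77-fold, was positive under all 12 alternatives, from 0.55 to 1.01, and reached 2-fold under 2 of them. Macrophages are known for both transporters, and the macrophage marker sum was higher on the same array, from 56.8 to 150. Whether that has a part in the Abcg1 difference was not tested.

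The genes that work with these transporters were taken as a list of 21, of which 19 were measured on both arrays. Of these 3 were 2-fold or more higher and 1 lower, where 5.82% and 2.29% of all genes were, with a median of 0.27. Mylip was counted within 2-fold at 0.08 by its brighter probe, while its second probe gave 1.28. Array-median scaling gave 2 higher and 1 lower, with a median of -0.01. Normexp background correction with 75th percentile scaling gave 1 higher and 3 lower, with a median of -0.14. Nr1h3, the gene of LXR alpha, went from 851 to 5270, a difference of 2.10, and its second probe gave 2.15. Pltp, the phospholipid transfer protein of plasma, went from 44.8 to 199 (1.62), and Lipa, the lysosomal acid lipase, from 535 to 1570 (1.02, just past 2-fold). The other LXR gene, Nr1h2, gave 11136 and 12600 (-0.35). Of the 2 genes measured on the ob/ob array only, Lcat, the plasma enzyme that esterifies cholesterol, was at least 2.14-fold higher.

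A gene measured on 1 array only has a bound in place of a difference. The brighter scaled signal was divided by the higher of the dim probe's own scaled signal and that of the dimmest probe well above background on its array, which was a signal of 12.3 for wild-type and 11.7 for ob/ob. The result is written as "at least" but takes no account of the scanner error, which is larger for dim probes. Over the 6 members seen on the ob/ob array only, the error SD of the difference as it stands ran from 0.40 for Abcc2 to 1.47 for Abcg5.

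Abcg5 and Abcg8 form the heterodimer that exports sterols from hepatocytes and enterocytes. Abcg8 gave 10.0 in wild-type cells, not well above background, and 61.7 in ob/ob cells, and was at least 3.46-fold higher. Abcg5 gave 2.60 and 15.4 and was likewise well above background on the ob/ob array only, but so near the limit that no fold can be given. The pair thus shared both a start region and the array on which it was seen. Abcg4, a relative of Abcg1 known from the nervous system, gave 57.7 and 56.6, a difference of -0.56 (scanner error SD 0.23), and its second probe, which shares 44 bases with the first, gave -0.55. Abcg3 was near background on both arrays, at 4.37 and 15.3.

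The bile transporters split. Abcb11, the bile salt export pump of hepatocytes, gave 4.63 in wild-type cells, not well above background, and 148 in ob/ob cells. It was at least 8.29-fold higher, the highest bound among the 6 members seen on 1 array. Abcb4, which flips phosphatidylcholine into bile, gave 4982 and 6200, a difference of -0.22 (scanner error SD 0.20) that stayed between -0.50 and -0.03 under the alternatives. The hepatocyte marker sum went from 2.63 to 21.0, with Alb going from 1536 to 19700, and its part in the Abcb11 signal was not tested. Abcb4 does not run the same way as those markers.

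The drug pumps of the B and G subfamilies were all measured on both arrays and all lay within 2-fold. Abcb1a and Abcb1b encode the P-glycoproteins of the mouse, broad drug exporters of barrier endothelium. Abcb1a gave 1920 and 2230 (-0.32) and Abcb1b 6008 and 7930 (-0.13). Abcg2, which exports drugs and urate, gave 1385 and 2520 (0.33), a positive difference under all 12 alternatives, while Abcb1b turned to 0.07 when centred on genes of like level. Abcb1a, Abcb1b and Abcb4 are neighbours on chromosome 5. Aligned with one another, their probes had at most 24 of 60 bases identical between any 2 of the 3. No probe was compared with the transcripts of the other genes, so cross-reading between them was not checked.

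Among members measured on both arrays, those beyond 2-fold were all of the Abcc subfamily, in both directions. Of its 10 genes 7 were measured on both arrays, with 2 beyond 2-fold on the higher side, 1 on the lower side, and a median of -0.16. Abcc4 exports cyclic nucleotides, prostaglandins and bile acids. Its signal was 8298 for the wild-type mouse and 3730 for the ob/ob mouse, a difference of -1.69 (scanner error SD 0.20), or 3.22-fold lower. It stayed at least 2-fold lower under all 12 alternatives, from -1.97 to -1.50, and is the lowest difference among the 32 members measured on both arrays. The filters and the probe averaging among the alternatives left it at -1.69 by construction, since it has 1 bright probe. Both values are far above the dimmest measured signals.

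Abcc3, an exporter of glucuronides and bile acids toward the blood, ran the other way, with 1036 and 3290, a difference of 1.13 (scanner error SD 0.20), or 2.20-fold. Under array-median scaling it was 0.86, and under the other 11 alternatives at least 2-fold. Hepatocytes and cholangiocytes are known to express Abcc3, and the summed markers of both were higher on the ob/ob array, from 2.63 to 21.0 and from 0.62 to 5.52. The cholangiocyte sum, brightest in Spp1, includes Cldn4, which ran the other way. The part of these cells in the Abcc3 difference was not tested.

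The remaining exporters of the subfamily lay within 2-fold or near background. Abcc1, which exports glutathione conjugates and leukotriene C, gave 7251 and 7110 (-0.56) and was negative under all 12 alternatives. Abcc5, an exporter of cyclic nucleotides, was spotted 10 times, with signals from 1202 to 1342 (median 1253, 9 kept spots) in wild-type cells and from 1300 to 1430 (median 1350, 10 spots) in ob/ob cells. Its difference was -0.43, and the 9 spots kept on both arrays ranged from -0.48 to -0.37 with an SD of 0.03. Its 3 other probes gave -0.49, -0.18 and 0.05, so probes of this gene differed by more than its replicate spots did. Abcc10, a lipophilic drug exporter, gave 438 and 570 (-0.15). Abcc2, which secretes conjugated bilirubin into bile, gave 11.8 and 23.2, at least 1.30-fold higher by the bound. As it stands its difference was 0.44, little larger than its scanner error SD of 0.40. Abcc6, a hepatocyte protein whose loss causes ectopic mineralisation, gave 3.46 and 21.1 and was at least 1.18-fold higher by 1 of its 2 probes. The scanner error SD of that probe's difference was 1.46. The other probe was not well above background on either, at 2.84 and 5.48. Abcc12 was near background on both, at 3.42 and 7.09.

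**Figure D2:**
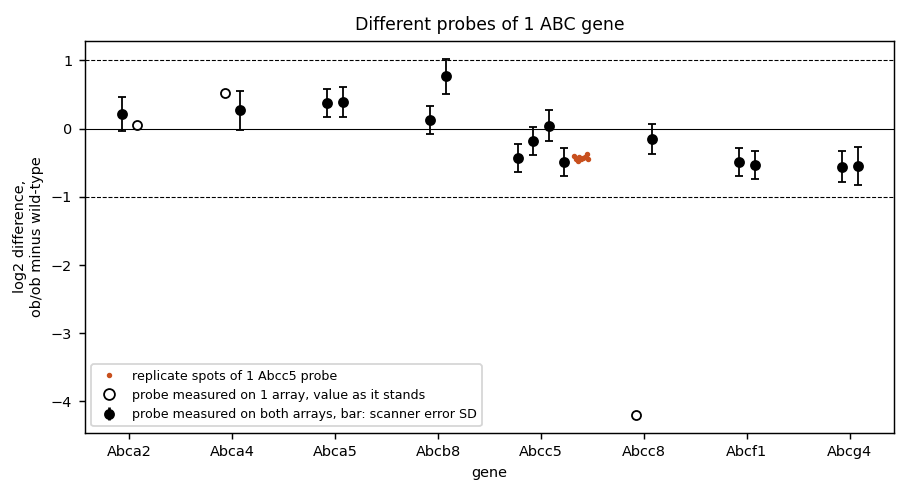
Difference in log2 (ob/ob minus wild-type, vertical axis) of each probe of 8 ABC genes with more than 1 probe well above background on at least 1 array, with bars of 1 scanner error SD, and of the replicate spots of 1 Abcc5 probe. Open circles are probes measured on 1 array, given as they stand, and the lowest of them is the second Abcc8 probe.

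The list of 15 genes around glutathione supply and conjugation, most of which help make substrates of the conjugate pumps, was lower on the ob/ob array on balance. It was chosen with earlier results of these data known, so its counts beside all-gene shares are a description only. Of 13 genes measured on both arrays 4 were 2-fold or more lower, where 2.29% of all genes were. Higher by 2-fold or more was 1, where 5.82% were, and the median was -0.75. Array-median scaling gave 7 lower, where 5.39% of all genes were, and a median of -1.03. Normexp with quantile normalization gave 2 lower, where 0.717% were, and a median of -0.40. Gsta3 and Gstm1, both glutathione transferases, gave 5081 and 1190 (-2.63) and 11074 and 7110 (-1.17). Gclm, the modifier subunit of glutamate-cysteine ligase, gave 1814 and 803 (-1.71), and Gstp1, another transferase, 59031 and 38500 (-1.15). Second probes gave -2.77 for Gsta3, -0.78 for Gstm1 and -1.23 for Gstp1. The transferase Gstt1 went the other way, from 56.0 to 372 (2.20). Ggt1, which breaks glutathione down outside cells, was well above background on the wild-type array only and was at least 2.05-fold lower on the ob/ob array. Ggt5, also on the list, was well above background on the ob/ob array only, at 2.67 and 13.4, too near the limit for a fold.

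Abcc8 and Abcc9 do not transport. They encode the sulfonylurea receptors, the regulatory subunits of ATP-sensitive potassium channels, whose pores are Kcnj8 and Kcnj11. Abcc9 gave 111 for the wild-type mouse and 789 for the ob/ob mouse, a difference of 2.29 (scanner error SD 0.21), or 4.89-fold, the highest among the 32 members measured on both arrays. It was at least 2-fold higher under all 12 alternatives, from 1.10 with normexp and 75th percentile scaling to 2.40. The filters and the probe averaging left Abcc9 at 2.29 by construction. Kcnj8, the pore that pairs with Abcc9 in vascular mural cells, went the same way, from 618 to 6100 (2.77). Kcnj11, the pore known from pancreatic beta cells, was near background on both arrays, at 5.25 and 8.31. Mural and stellate cells are known for Abcc9 and Kcnj8. The stellate marker sum, most of it Dcn, went from 9.08 to 36.3, and the marker Rgs5 from 141 to 1160. The part of these cells in the Abcc9 difference was not tested.

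Abcc8 was read by the overlapping probes shown above, which did not match. Probe A_55_P2178207 gave 62.2 and 80.7, a difference of -0.16 (scanner error SD 0.22). Probe A_55_P1979814 starts 13 bases further on, gave 77.9 in wild-type cells and 6.15 in ob/ob cells, and was not well above background in the latter. Taken as it stands its difference is -4.19. With each probe on 1 spot per array, no direction can be given for Abcc8.

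The other A subfamily members handle lipids. Of 15 genes 6 were measured on both arrays, 1 in ob/ob cells alone and 8 in neither, and none of the 6 was 2-fold apart. Abca7, a phospholipid exporter tied to phagocytosis, was the lowest, with 12985 and 10700 (-0.81, scanner error SD 0.20), and passed 2-fold at -1.09 under array-median scaling. Abca3, known for lamellar bodies of the lung, gave 5692 and 5800 (-0.51), and its neighbour on chromosome 17, Abca17, gave 70.3 and 82.2 (-0.31). Abca5, a lysosomal protein, was the highest, with 119 and 223 (0.38), a second probe at 0.39, and -0.47 with normexp and 75th percentile scaling. Abca2 and Abca4 gave 0.22 and 0.27 from signals between 23.3 and 66.1, with scanner error SDs of 0.25 and 0.29, and both turned negative with that same correction. Abca8b was seen on the ob/ob array only, at 6.65 and 36.4, at least 2.04-fold higher. On chromosome 11 it is followed by Abca8a, Abca9 and Abca6, which were not well above background on either array, and then by Abca5, which was measured on both. The other 5 of the 8 unmeasured genes, Abca12 to Abca16, gave signals between 2.49 and 8.84.

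The organelle transporters were within 2-fold throughout with the main scaling. Abcb9, a lysosomal peptide transporter, gave 127 and 99.2 (-0.89, scanner error SD 0.21) and was at least 2-fold lower under 3 of 12 alternatives. Abcb6, a porphyrin transporter, gave 1118 and 1070 (-0.60). Of the mitochondrial members, Abcb10 gave 925 and 1310 (-0.03) and Abcb8 659 and 1040 (0.13), with a second Abcb8 probe at 0.77. The signs of both small differences turned under at least 1 scaling. Abcb5 was near background on both, at 2.82 and 2.59.

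Abcd3 brings branched-chain fatty acids and bile acid precursors into peroxisomes. It gave 3571 and 5120 (-0.01). Abcd4, which serves lysosomal cobalamin export, gave 688 and 1030 (0.05, and -0.23 under array-median scaling), and Abcd2 was near background on both, at 2.73 and 2.61. The 10 genes of peroxisome import and beta-oxidation had a median of -0.01 and none was 2-fold apart.

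The 4 ribosome-related members were measured on both arrays, and none was 2-fold apart. Abce1, which splits ribosomes after termination, gave 9331 and 12800 (-0.08), and Abcf3 2342 and 3200 (-0.08). Abcf2 gave 2595 and 3030 (-0.31). Abcf1, a partner of initiation factors, gave 11482 and 11800 (-0.49) with a second probe at -0.54, and was negative under all 12 alternatives, while Abce1 and Abcf3 turned positive when centred on genes of like level.

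The 17 regulators and uptake carriers of bile acids and drugs gave 10 genes measured on both arrays, with a median of -0.21. Of these 2 were 2-fold or more higher and 1 lower, where 5.82% and 2.29% of all genes were. Array-median scaling and quantile normalization each gave 1 higher and 3 lower. Normexp with 75th percentile scaling gave 0 higher and 4 lower, with a median of -0.77. Ahr, the receptor for aryl hydrocarbons, gave 14938 and 8150 (-1.41), with a second probe at -1.22. Slco2b1, an organic anion carrier, gave 26.9 and 112 (1.53), and Atp8b1, a phospholipid flippase of the canaliculus, 180 and 566 (1.12). Slco1b2, an uptake carrier of hepatocytes for organic anions, was seen on the ob/ob array only, at least 16.0-fold higher. Nr1h4, the bile acid receptor FXR, gave 118 and 154 (-0.15). The ABC proteins outside the name pattern, with the peptide loading factor Tapbp beside them, had none of 4 genes 2-fold apart. Tap1 and Tap2, which load peptides for antigen presentation, gave 0.34 and 0.60, Tapbp 0.46 and Cftr, a chloride channel, -0.31.

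**Figure D3:**
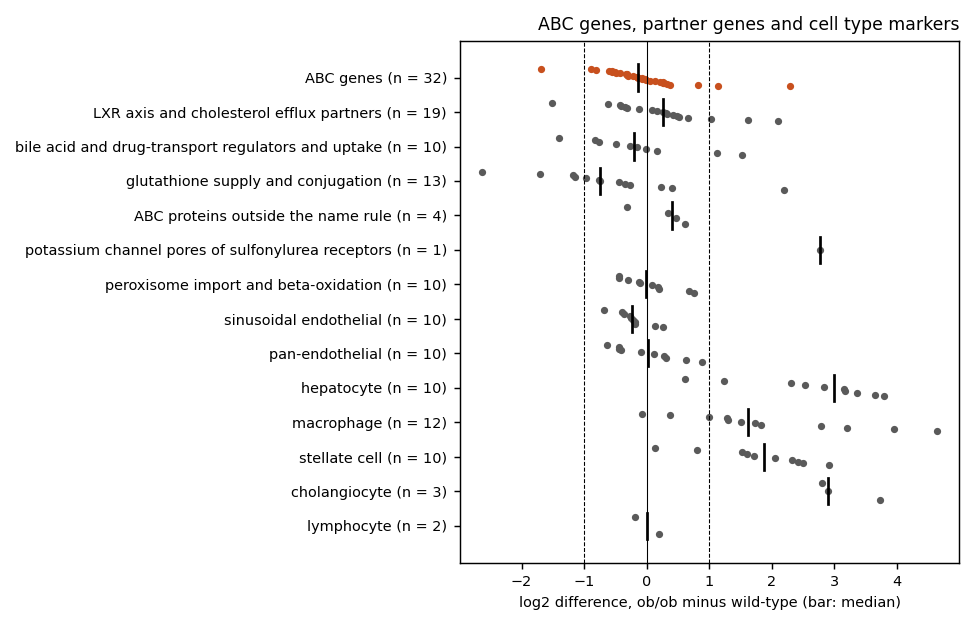
Difference in log2 (ob/ob minus wild-type, horizontal axis) of each gene measured on both arrays in the ABC family, in partner lists and in cell type marker lists, with a bar at each list's median. ABC genes centre at -0.14, and the hepatocyte, macrophage and stellate markers centre at 2.99, 1.62 and 1.88. The partner list of LXR and cholesterol efflux, at 0.27, turns to -0.01 under array-median scaling.

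Upstream windows also differed in base composition by the array state of the gene, a feature the name pattern did not use. The median GC content was 61.6% with 17 CpG dinucleotides over 23 members measured on both arrays, 50.6% with 4.5 over 10 members measured on neither, and 48.8% with 4 over 5 members seen on the ob/ob array only. Over all 27025 genes in the table it was 52.0% with 6. The ranges overlapped, from 40.4% to 72.0% for the first group and from 36.8% to 66.4% for the second. These are descriptions over windows of the genes that had one, and no test was made. All genes were not split by array state, so the contrast is not shown to be particular to ABC genes. A GC box, GGGCGG, stood in 44.4% of member windows and 32.7% of all windows, and TATAAA in 11.1% and 12.4%.

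**Figure D4:**
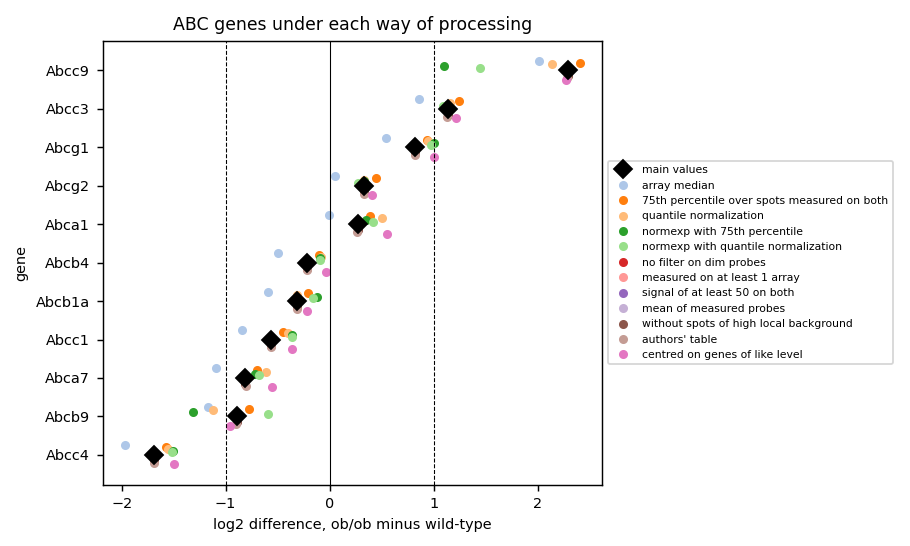
Difference in log2 (ob/ob minus wild-type, horizontal axis) of 11 ABC genes under the main processing (diamonds) and 12 alternatives (circles). Abcc9 and Abcc4 stay beyond the dashed 2-fold lines throughout, Abcc3 drops to 0.86 under array-median scaling, and Abca1 reaches zero there.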

How the data were processed

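RNA of 1 wild-type and 1 ob/ob LSEC preparation was labelled with Cy3 and read on 2 one-colour arrays. The deposited scanner files hold spot intensity, which was background-subtracted but not scaled between arrays, per the file headers, by Agilent Feature Extraction 11.0.1.1, a version taken from the submitters' processing notes. The authors' deposited table of 24868 features holds the ratio of that intensity to the array's 75th percentile, within 0.014 log2, with column medians of 0.614 and 0.648, and served as an alternative.

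Here spots flagged as uneven or outliers were dropped, log2 intensity was scaled to the 75th percentile over 43020 non-control spots, replicate spots were averaged, and each gene was read from its probe with the highest mean signal. Probes were named through RefSeq accessions where possible (26055 of 39429 by the main one and 102 by another), with probe positions on mm9 per the file headers. No test was run, since each group has 1 array. Normexp used limma 3.58.1 (offset 50) in R 4.3.3; other steps used Python 3.11.15 and pandas 2.3.3.

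Sterol, bile and every Abcc gene, members seen on 1 array, members at least 2-fold apart and the extremes of each role were named with values, and partner genes where at least 2-fold apart. The members and lists were chosen with earlier results of these data known, so their counts beside the shares of all genes are descriptions only. Nr1h2, Nr1h4, Mylip, Kcnj11, Ggt5, the ABC proteins outside the name pattern and the markers given with values were named beyond that rule, after their values were seen. Some genes that are counted are not reported here by name.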

Additional observations from a re-analysis of the deposited data

How the results depend on the processing

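No paired analysis was possible because each genotype has 1 array and no test was run. The main scaling gave 2 ABC genes at least 2-fold higher and 1 lower, where 5.82% and 2.29% of all genes were. Array-median scaling gave 1 higher and 3 lower, where 4.23% and 5.39% of all genes were. The ABC median moved to -0.42 and that of all genes to -0.40. Quantile normalization gave 2 lower, where 3.07% of all genes were. Normexp with 75th percentile scaling gave 3 higher and 8 lower, where 2.03% and 21.1% of all genes were. Without a filter on dim probes 8 of 50 were higher and 2 lower, where 8.4% and 5.13% of all genes were, and with genes measured on at least 1 array 7 of 38 were higher, where 10.5% were. A 1.5-fold limit gave 3 of 32 higher and 4 lower, where 9.81% and 9.1% of all genes were. The array-median step is a shift by construction and the filters change the genes counted, while for the other settings the cause was not tested. The other alternatives, among them the authors' table and centring on genes of like level, which was chosen after seeing the data, kept these counts within 1.5 times. Abcc9, Abcc3 and Abcc4 kept their direction in all 36 values. The filters and the probe averaging could not change these 3 genes, each read by 1 probe, so those values are no separate check. Abca17, Abca2, Abca4, Abcc8 and Abcg4, whose signals were at most 82.2, were 2-fold lower only with normexp and 75th percentile scaling. With 1 mouse, 1 slide position and 1 preparation per genotype, genotype cannot be told apart from these.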

Other observations

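Slc10a1, the bile acid uptake carrier of hepatocytes, read 154965 for the wild-type mouse and 160000 for the ob/ob mouse, a difference of -0.49 from 1 probe. The hepatocyte marker Alb, over the same pair of arrays, went from 1536 to 19700. The Slc10a1 value was singled out after it was seen, and the source of its signal was not tested.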
